A study of Mus musculus with 30 samples.

Results

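The liver and the interscapular brown adipose tissue (iBAT) of wild-type (WT) mice were compared within the same animals. Of the 30 bulk RNA-seq libraries of the series, 10 were used, 5 of liver and 5 of iBAT, and they were matched by the mouse number that the libraries carry. The mice were WT males of C57Bl/6J background, the controls of a line without liver fatty acid binding protein (LFABP-/-). From 2 months of age they ate a diet with 45 kcal% fat, rich in saturated fat, for 12 weeks, and all were fasted for 4 hours before the tissues were taken, so no lean or chow-fed group enters the comparison. Replicate numbers 1 to 5 below name the mouse in both tissues.

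Liver and brown fat both burn fatty acids at a high rate, but to different ends. Hepatocytes take up fatty acids, oxidize part of them to acetyl-CoA and export the product as ketone bodies, and they repackage the rest into lipoproteins. Brown adipocytes run the acetyl-CoA through the tricarboxylic acid (TCA) cycle and the respiratory chain, where uncoupling protein 1 (Ucp1) lets the proton gradient run down as heat. Many steps of fuel use are served by related genes, of which tissues use different members.

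The deposited values sum to between 999967.3 and 999983.5 in every liver and iBAT library of both genotypes, so each value is a share of that library's total. Transcripts of the mitochondrial genome (mt- genes) took 12.1% to 15.1% of the total in liver and 54.4% to 60.1% in iBAT, which pushes down every other iBAT value. A gene was therefore called higher in a tissue only where limma, with the mouse as a block, gave an adjusted p under 0.1 in the same direction on 2 scales, the values as deposited and the values without mt- genes rescaled to the same total. In liver the 10 most abundant other genes took 21.1% to 23.9% of the total, against 4.2% to 5.3% in iBAT. This pushes down the other liver values, and neither scale corrects for it. Log2 ratios below are liver over iBAT of value + 0.5 on the deposited scale unless stated, and the median over all genes was 0.14 on that scale and -0.82 without mt- genes. Of 13242 genes with a mean of at least 1 in either tissue, 2723 were higher in liver (20.6%) and 4735 were higher in iBAT (35.8%). At 4-fold or more on both scales the counts were 1221 in liver (9.22%) and 1091 in iBAT (8.24%). The mt- genes, which have no value on the second scale, were called on the deposited values alone and are included in these counts. The counts of gene lists below are to be read against these shares of all tested genes. A lack of overlap between the tissues was common. On the deposited values it was found for 66.0% of the tested genes, 5000 higher in liver and 3735 higher in iBAT. Another 2163 genes were higher in liver as deposited and lower in liver without mt- genes, and no direction is given for these. The libraries' column names carry 2 prefixes, whose meaning is not stated, that separate replicates 1 to 3 from replicates 4 and 5. Within the first prefix 2610 genes were higher in liver and 4683 in iBAT, and within the second 2528 and 3507.

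**Figure D1:**
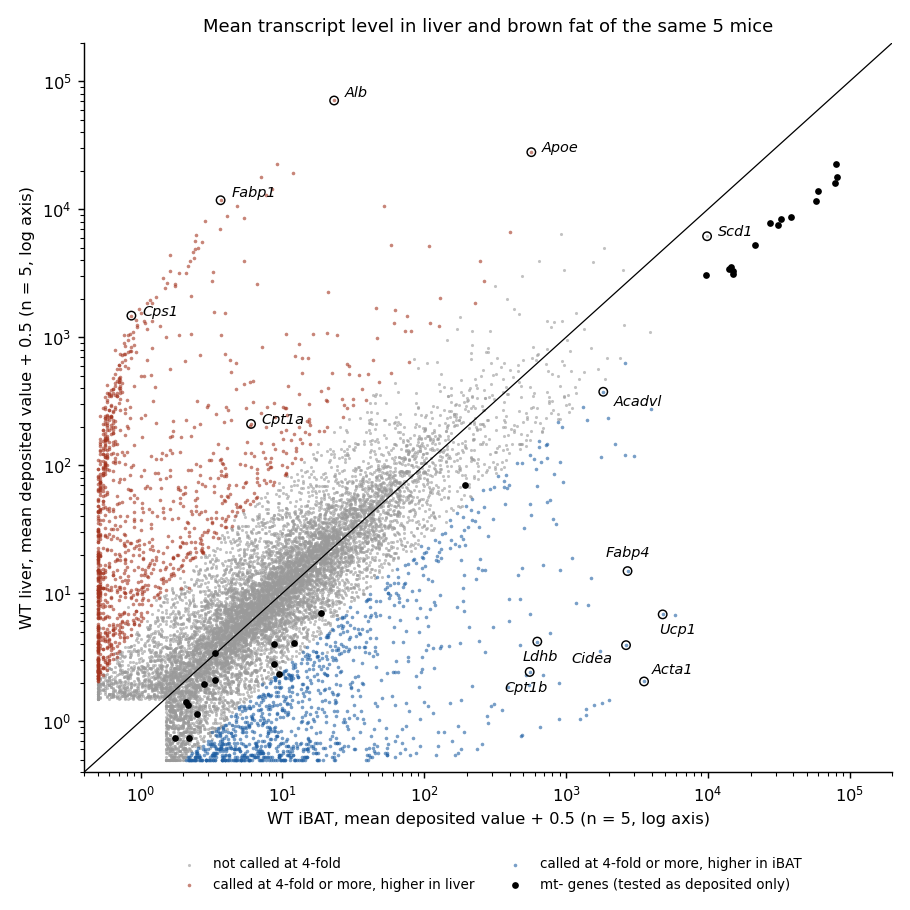
Each point is 1 of the 13242 genes, placed by its mean deposited value + 0.5 in 5 iBAT libraries (horizontal) and in 5 liver libraries (vertical) of WT mice, on log axes with the line of equal values. Red genes were called at 4-fold or more higher in liver (1221), and blue genes higher in iBAT. Black points are mt- genes, and those called at 4-fold are counted in the 1091 of iBAT but not drawn blue. Grey genes were not called at 4-fold. Fabp1 and Alb lie far above the line, and Ucp1, Fabp4 and Cidea far below it.

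Promoters are shown of Fabp1, Alb and Ucp1, whose transcripts identify the tissues, and of Cox6a1. Cox6a1 holds the motif that, of the 5 searched, was most common in the mitochondrial lists counted below. The sequences are the 250 bases before the RefSeq start of each gene on GRCm38.p6, 5′ to 3′ on the gene's own strand: Fabp1 at chr6:71199629-71199878 (plus strand), Alb at chr5:90460620-90460869 (plus), Ucp1 at chr8:83290098-83290347 (plus) and Cox6a1 (a cytochrome c oxidase subunit) at chr5:115348959-115349208 (minus). Capitals mark exact matches, on either strand, to TATAAA (the TATA box), GTTAATNAT (a site of the hepatocyte factor HNF1), CAAAGTCCA (HNF4), TCAAGGTCA (ERR) or GCGCATGCG (NRF1).
Fabp1: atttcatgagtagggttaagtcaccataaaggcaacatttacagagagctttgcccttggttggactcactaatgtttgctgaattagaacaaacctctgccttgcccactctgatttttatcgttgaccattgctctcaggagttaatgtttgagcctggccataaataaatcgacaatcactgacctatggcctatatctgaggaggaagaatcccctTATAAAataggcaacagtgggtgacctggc
Alb: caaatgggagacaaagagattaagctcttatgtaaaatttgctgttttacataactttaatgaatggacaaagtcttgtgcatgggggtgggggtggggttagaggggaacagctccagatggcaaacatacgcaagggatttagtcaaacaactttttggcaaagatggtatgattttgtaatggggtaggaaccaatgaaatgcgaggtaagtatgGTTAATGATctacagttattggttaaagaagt
Ucp1: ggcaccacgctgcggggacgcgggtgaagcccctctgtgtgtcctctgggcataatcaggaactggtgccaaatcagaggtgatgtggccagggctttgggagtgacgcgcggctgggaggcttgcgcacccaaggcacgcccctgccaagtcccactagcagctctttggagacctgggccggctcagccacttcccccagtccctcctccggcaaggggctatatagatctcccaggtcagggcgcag
Cox6a1: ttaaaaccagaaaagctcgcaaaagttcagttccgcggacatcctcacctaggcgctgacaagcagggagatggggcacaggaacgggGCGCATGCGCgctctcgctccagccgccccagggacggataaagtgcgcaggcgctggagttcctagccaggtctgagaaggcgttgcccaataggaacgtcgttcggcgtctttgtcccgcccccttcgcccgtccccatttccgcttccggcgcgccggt
The match in Fabp1 is a TATA box, the match in Alb is to HNF1, and in Cox6a1 the NRF1 letters are found on both strands at positions offset by 1 base. None of the 5 sets of letters is in this Ucp1 window. The mitochondrial lists counted were mitochondrial beta-oxidation and the nuclear subunits of complexes I, III and IV and of ATP synthase, without the TCA cycle. Of their 98 tested genes 82 had a window, from 250 bases before to 50 bases after the start. The NRF1 letters were in 12 of these 82 (14.6%), against 527 of all 27025 genes with a window (1.95%). Among the tested genes the letters were in 392 of 10172 with a window (3.85%), a window being found for 76.8% of them, and a match is only a description of these letters. The same count was left out for the genes called at 4-fold or more. Windows were found for 74.5% of those higher in liver and 71.3% of those higher in iBAT. Both shares are below the 83.7% of the mitochondrial lists and the 76.8% of all tested genes.

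The liver libraries were led by hepatocyte transcripts and the iBAT libraries by those of brown adipocytes. Fabp1, the liver fatty acid binding protein, was 12672.1, 12697.6, 9165.5, 11860.2 and 12327.2 in the livers of replicates 1 to 5 and 1.4, 0.2, 0.4, 5.1 and 8.7 in their iBAT. It ranked 8 in liver among genes other than mt- genes, and its log2 ratio was 12.32 ± 0.54 (SE, n = 5 mice, limma adjusted p = 1.24e-06). Ucp1 was 5387.3, 5521.7, 4499.4, 4243.4 and 4320.0 in iBAT, where it ranked 3, and 9.3, 12.7, 7.2, 1.0 and 1.4 in liver. The log2 ratio of Ucp1 was -9.92 ± 0.45 (SE, n = 5 mice, limma adjusted p = 1.35e-06), and neither gene overlapped between the tissues.

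All 10 hepatocyte markers were higher in liver, and 7 of 8 brown adipocyte markers and all 8 general adipocyte markers were higher in iBAT. The exception was Elovl3, an elongase of very long-chain fatty acids used as a brown fat marker. It was 128.1, 186.2, 130.8, 144.9 and 55.2 in liver and 63.4, 171.9, 51.9, 27.2 and 145.8 in iBAT, so that the tissues overlapped and Elovl3 was not called (log2 ratio 0.69 ± 0.49, SE, n = 5 mice, limma adjusted p = 0.234). Low levels of the other tissue's markers were found in both directions. Alb, the gene of serum albumin, had a mean of 70671.6 in liver and was 36, 1.9, 2.1, 23.5 and 49.6 in iBAT, and the summed hepatocyte markers were 53.1 to 209.5 in iBAT against 114140.3 to 137750.6 in liver. Fabp1 was 3.89% to 21.7% of Alb in the 5 iBAT libraries and 14.7% to 20.4% of Alb in liver. Of the 1221 genes at 4-fold or more in liver, 462 had an iBAT mean of at most 0.1% of their liver mean, a level at which iBAT transcription and carried-over liver RNA cannot be told apart.

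Other cell types differed as well, and in bulk tissue fewer cells of a type and less RNA per cell cannot be told apart. Kupffer cell markers (6 of 6), liver sinusoidal endothelial markers (5 of 5), cholangiocyte markers (4 of 4) and general macrophage markers (4 of 6) were higher in liver. Clec4f, a Kupffer cell receptor, had a mean of 93.48 in liver and was listed at 0 in every iBAT library. Endothelial markers (6 of 6) and Schwann and nerve markers (4 of 4) were higher in iBAT. S100b, a Schwann cell gene that brown adipocytes also express, had means of 138.04 in iBAT and 0.32 in liver.

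Skeletal muscle transcripts were present in iBAT to a degree that differed widely between mice. The 12 muscle markers summed to 1365.3, 3492.0, 5314.8, 17907.3 and 35744.0 in the iBAT of replicates 1 to 5 and to 2.3 to 18.6 in liver, and all 12 were called higher in iBAT. Acta1, skeletal alpha-actin, was 391.8, 994.2, 1804.2, 4804.5 and 9720.9 in iBAT, while Cidea, a lipid droplet protein of brown adipocytes, was 2591.3, 3180.9, 2546.5, 2405.8 and 2496.3 in the same libraries. The highest muscle sums were in replicates 4 and 5, which are also the mice of the second name prefix. Of the genes at 4-fold or more in iBAT, 223 of 1091 were over 4 times higher in iBAT replicate 5 than in replicate 1 (on value + 0.5), against 338 of all 13242 tested genes, and without them 868 remained. Pygm, Cox6a2, Atp2a1 and Pfkm, named below, are of this kind. Atp5g1, also named below, was over 4 times higher in iBAT replicate 5 than in replicate 1 too, but it was higher in liver. The part of muscle RNA in these genes was not tested.

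**Figure D2:**
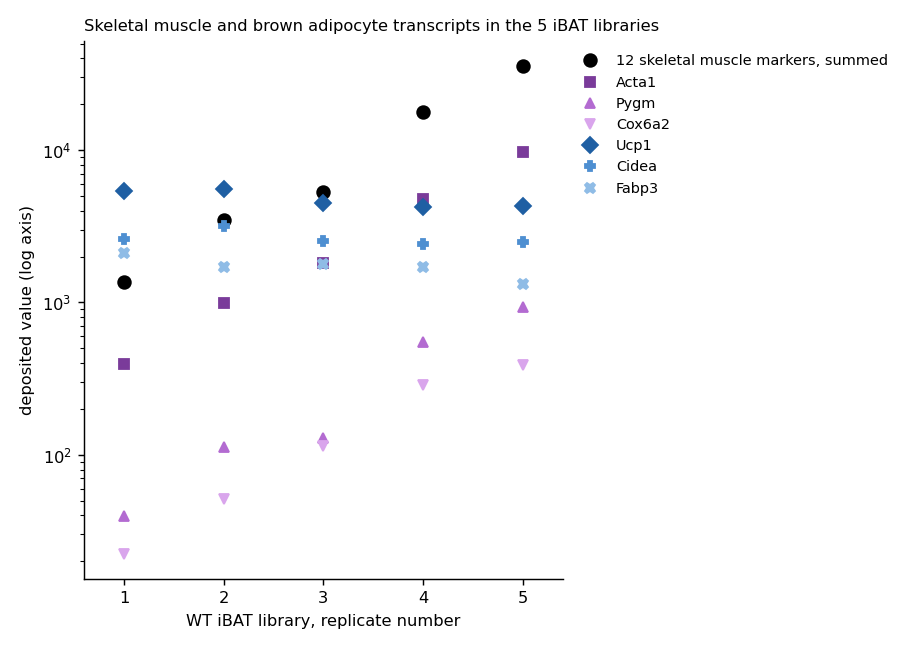
Deposited values (log axis) in the 5 WT iBAT libraries, by replicate number, of the summed skeletal muscle markers (black), of the muscle-expressed genes Acta1, Pygm and Cox6a2 (purple) and of the brown adipocyte genes Ucp1, Cidea and Fabp3 (blue). The muscle sum lies between 1365.3 and 35744.0, whereas Ucp1 lies between 4243.4 and 5521.7.

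The fatty acid binding proteins, small carriers that move fatty acids through the cytosol, were split between the tissues. Of the 6 family members tested, 3 were higher in liver and 2 were higher in iBAT. Fabp2, the intestinal form, was 234.1, 167.3, 123.1, 164.9 and 196.0 in liver and at most 0.4 in iBAT, and Fabp7, the brain form, had means of 4.24 and 0.14. Fabp4, the adipocyte form, was 2643.1, 2952.4, 2708.4, 2571.6 and 2671.9 in iBAT and 7.3, 20.2, 13.3, 11.5 and 19.5 in liver, a log2 ratio of -7.60 ± 0.19 (SE, n = 5 mice, limma adjusted p = 8.9e-08). Fabp3, the heart form, was 1331.0 to 2126.5 in iBAT and 1.0 to 6.2 in liver. Fabp5, the epidermal form, was not called (log2 ratios 0.94 as deposited and -0.08 without mt- genes). The summed value of the family was 11990.8 ± 1508.2 (SD, n = 5) in liver and 4463.3 ± 305.9 (SD, n = 5) in iBAT.

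Genes of fatty acid uptake and activation also differed in direction between members. Of 14 genes tested, 6 were higher in liver and 4 were higher in iBAT, against 20.6% and 35.8% of all tested genes. Slc27a5, which activates bile acids and very long-chain fatty acids, was 779.7, 719.2, 874.7, 880.4 and 597.9 in liver and at most 0.8 in iBAT. Slc27a2, the other main hepatic transport protein, was higher in liver by a log2 ratio of 2.74 ± 0.08 (SE, n = 5 mice, limma adjusted p = 1.64e-07). Its means were 956.12 in liver and 144.28 in iBAT, and in iBAT it still made 61.9% of its pair with Slc27a1. In iBAT, the membrane receptor Cd36 was 834.0, 902.3, 809.5, 714.7 and 751.5, above its 26.7 to 55.9 in liver. Slc27a1 (means 88.16 in iBAT and 5.88 in liver) and Acss1, the mitochondrial acetyl-CoA synthetase (125.14 and 0.32), were also higher in iBAT. The long-chain acyl-CoA synthetases differed less. Acsl1 was 394.9 to 566.9 in iBAT and 164.6 to 235.5 in liver, whereas Acsl5 was 51.7 to 75.3 in iBAT and 162.0 to 219.6 in liver, with no overlap for either.

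The carnitine shuttle carries long-chain acyl groups into mitochondria, and 6 of its 8 tested genes were higher in iBAT and 1 in liver. The liver gene was Cpt1a, the hepatic form of the outer membrane transferase that sets the rate of entry, at 243.9, 226.1, 203.9, 166.7 and 206.0 in liver and 4.6, 6.2, 4.5, 4.7 and 7.5 in iBAT. Its muscle and brown fat counterpart Cpt1b was 582.2, 628.3, 544.4, 543.3 and 464.8 in iBAT and 1.2, 1.8, 0.5, 2.0 and 4.1 in liver. The summed value of both was therefore higher in iBAT, and each tissue drew about 99% of it from its own form (Cpt1a share 99.1% in liver and 1.01% in iBAT). Steps after Cpt1 differed by smaller factors in the direction of iBAT. Cpt2, on the inner membrane, had a log2 ratio of -1.52 ± 0.06 (SE, n = 5 mice, limma adjusted p = 6.95e-07), and the translocase Slc25a20 one of -1.92 ± 0.06 (SE, n = 5 mice, limma adjusted p = 1.7e-07). Acacb, which makes the malonyl-CoA that inhibits Cpt1, was higher in iBAT (means 309.64 and 66.92), and Mlycd, which degrades malonyl-CoA, was not called (103.04 and 113.2).

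Mitochondrial beta-oxidation, which shortens fatty acids to acetyl-CoA, was higher in iBAT across most of its genes. Of 20 genes tested, 18 were higher in iBAT and none in liver, and the median log2 ratio was -1.62 as deposited and -2.65 without mt- genes. The genes summed to 13748.5 ± 962.8 (SD, n = 5) in iBAT and 4150.8 ± 304.3 (SD, n = 5) in liver. Hadhb, the thiolase subunit of the trifunctional protein, was 1012.7, 1045.6, 911.3, 955.7 and 849.0 in iBAT and 66.3, 81.7, 60.9, 68.3 and 89 in liver. Its partner subunit Hadha, which shares the complex, differed less, with means of 487.42 and 103.9. The acyl-CoA dehydrogenases for long and very long chains, Acadl and Acadvl, had iBAT means of 1977.26 and 1826.98 and liver means of 234.58 and 373.72. Acaa2, the last enzyme of the medium-chain spiral, was abundant in both tissues (2573.54 and 1245.62). The 2 genes not called were Eci2 and Acad11, both of which also have peroxisomal products, with deposited log2 ratios of 0.76 and 0.33 that turned to -0.27 and -0.71 without mt- genes.

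Peroxisomal beta-oxidation and microsomal omega oxidation, which handle very long, branched and excess fatty acids, went the opposite way. Of 23 genes, 16 were higher in liver and 2 in iBAT, with a median log2 ratio of 1.95 as deposited and 0.91 without mt- genes. Acox2, the oxidase for bile acid intermediates, had means of 90.78 and 0.56. The omega hydroxylases Cyp4a10 (139.7 to 387.4) and Cyp4a12a (116.8 to 210.2) were at most 0.4 in iBAT. Cyp4a14, of the same cluster, ranged from 15.8 in replicate 3 to 431.2 in replicate 5 among the livers and stayed between 0.3 and 0.7 in iBAT. The genes higher in iBAT were Abcd2, an importer of very long-chain acyl-CoA (means 28.30 and 11.66), and Acox3 (7.90 and 6.16).

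Ketone bodies are made in liver and burned elsewhere, and of 6 genes of ketone use 4 were higher in iBAT and 2 in liver. Bdh1, the dehydrogenase that interconverts the ketone bodies, was 191.1, 184.0, 148.4, 169.4 and 230.7 in liver and 0.3, 0.7, 0.7, 2.7 and 1.5 in iBAT, with no overlap. Oxct1, the transferase that tissues need to burn ketones, was 124.5, 126.0, 131.6, 138.4 and 136.6 in iBAT and 2.3, 3.1, 2.9, 2.5 and 6.1 in liver. Acat1, a thiolase shared by both directions, was higher in iBAT by a smaller factor (359.62 and 197.7). The monocarboxylate transporters divided in the same comparison, with Slc16a1 higher in iBAT (85.08 and 24.12) and Slc16a7 higher in liver (12.16 and 2.06).

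**Figure D3:**
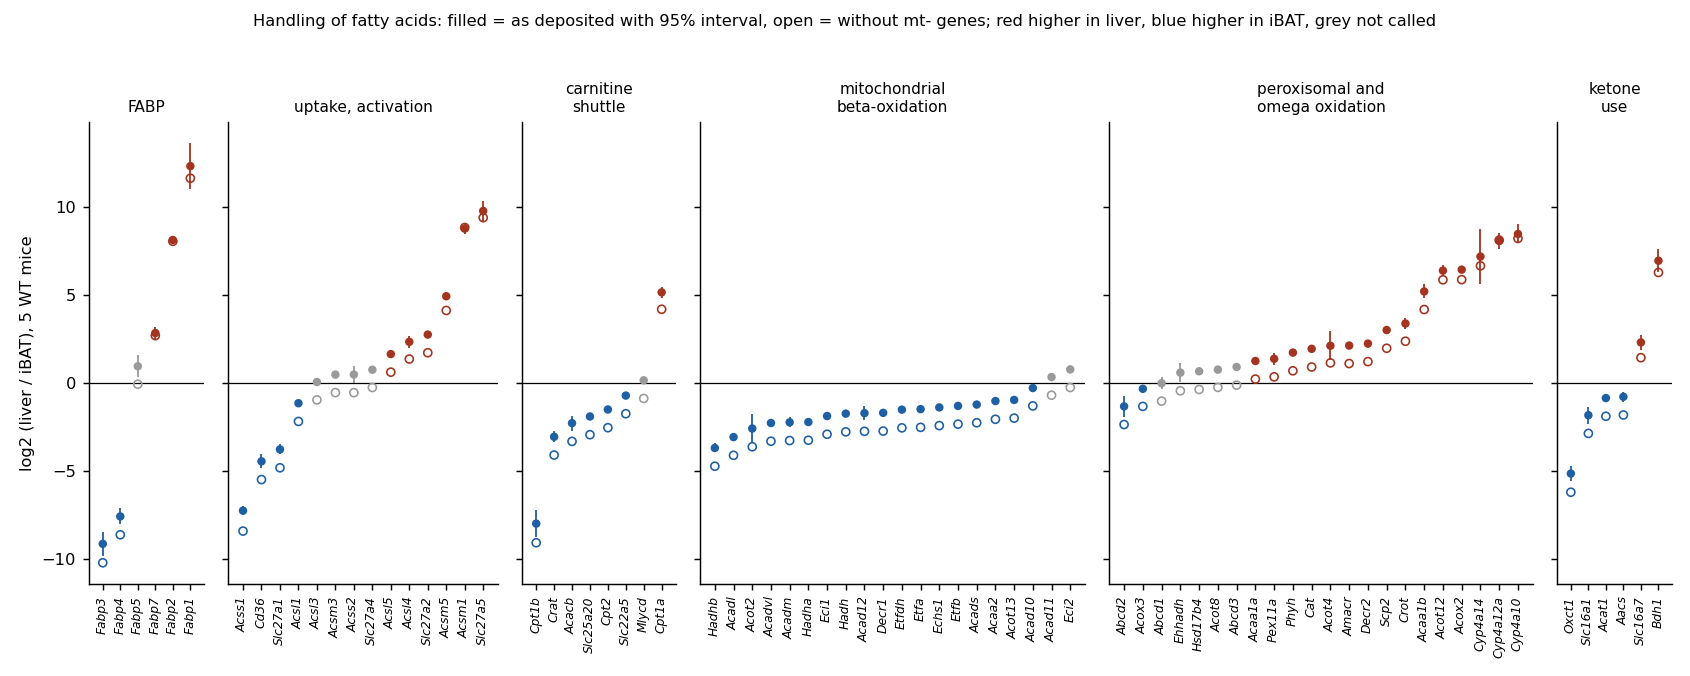
Log2 ratio of liver over iBAT for genes of 6 lists of fatty acid and ketone handling, as deposited with its 95% interval (filled, n = 5 mice) and without mt- genes (open), coloured red where called higher in liver, blue where called higher in iBAT and grey where not called. Mitochondrial beta-oxidation lies below 0 for 18 of 20 genes on both scales, and 15 of the 22 genes shown of peroxisomal and omega oxidation lie above 0 on both.

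Downstream of acetyl-CoA lies the TCA cycle, which completes the oxidation. Of 21 genes of the TCA cycle and pyruvate dehydrogenase, 20 were higher in iBAT, with a median log2 ratio of -2.45 as deposited and -3.49 without mt- genes, and 13 passed 4-fold on both scales. Idh3a, the catalytic subunit of the NAD-linked isocitrate dehydrogenase, was 445.1 to 515.4 in iBAT and 13 to 16.8 in liver, a log2 ratio of -4.98 ± 0.10 (SE, n = 5 mice, limma adjusted p = 2.56e-08). Citrate synthase, Cs, had means of 553.14 and 49.20. The gene not called was Suclg2, of the GTP-forming succinyl-CoA ligase (deposited log2 ratio 0.96). Pdk4, the kinase that shuts pyruvate dehydrogenase, was also higher in iBAT, at 1106.7 to 1254.6 against 3.4 to 15.1 in liver.

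The nuclear genes of the respiratory chain went one way. All 36 nuclear genes of complex I, all 9 of complex III and all 17 of complex IV were higher in iBAT, with median log2 ratios of -1.69, -1.68 and -1.83 as deposited and -2.73, -2.71 and -2.87 without mt- genes. The 13 proteins encoded by the mitochondrial genome were higher in iBAT on the deposited scale, the only one on which they can be tested, with a median of -2.07. The nuclear subunits of complex IV summed to 22046.7 ± 917.2 (SD, n = 5) in iBAT and 4517.1 ± 375.2 (SD, n = 5) in liver. ATP synthase was more mixed, with 12 of 16 genes higher in iBAT, 2 higher in liver and a median of -1.09. Its catalytic subunit Atp5b was 2332.0 to 2738.6 in iBAT and 597.6 to 645.3 in liver. Atp5g1, which encodes a copy of the membrane ring subunit and is known for its low level in brown fat, was 67.4, 64.5, 62.9, 74.6 and 69.4 in liver and 3.0, 6.1, 11.1, 25.5 and 42.4 in iBAT. The tissues did not overlap, and the iBAT values followed the order of the muscle sums. Atp5g3, another copy of the same subunit, had means of 345.38 in liver and 147.54 in iBAT, but its call was lost when replicate 1, 2 or 4 was left out.

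The transcripts of complex IV subunits also differed in their mix of forms. Cox8b, the muscle and brown fat form of subunit 8, was 5676.4, 6306.7, 5515.5, 6011.8 and 5953.2 in iBAT and 8.5, 12.6, 5.2, 2.8 and 2.3 in liver, while the general form Cox8a was 1985.2 to 2587.0 and 563.5 to 747.8. Cox8a thus made 99.1% of the Cox8 total in liver and 29.1% in iBAT. For subunit 7A, Cox7a1 was 1341.1 to 1553.1 in iBAT and 5.8 to 11 in liver, and the share of the general form Cox7a2 fell from 96.7% in liver to 27% in iBAT. For subunit 6A the general form Cox6a1, whose promoter is printed above, made 95.7% of the total in iBAT also. Cox6a2, its muscle form, was 22.2, 51.2, 114.6, 286.3 and 391.1 in iBAT, in the order of the muscle sums.

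Genes of thermogenesis and brown fat identity had the lowest median of the 38 pathway lists, -4.76 as deposited, and 19 of 20 were higher in iBAT. Beside Ucp1, Cidea and Cox8b, these included the potassium channel Kcnk3 (243.1 to 364.0 in iBAT, 0.3 to 1.1 in liver), the proton channel Otop1 (130 to 199.8 and 0.1 to 0.6) and Dio2, the deiodinase that activates thyroid hormone (16.8 to 50.8 and 0.0 to 0.2). Slc36a2, an amino acid transporter (means 281.44 and 0.46), also had a large difference toward iBAT. Of the creatine and calcium cycling genes, 8 of 12 were higher in iBAT, but Atp2a1, Ckm, Ckmt2 and Ryr1 among them followed the order of the muscle sums. Atp2a1, the calcium pump of fast muscle, was 203.5, 464.4, 631.6, 2646.1 and 3911.8 in iBAT. Ucp3 was 68.5 to 112.3 in iBAT and at most 0.3 in liver, and Ucp2 was not called (means 10.26 and 14.34).

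Of 42 mitochondrial carriers, the inner membrane transporters, 10 were higher in liver and 15 in iBAT, shares near those of all tested genes. Slc25a13, the liver aspartate-glutamate carrier that feeds the urea cycle, was 161.6, 139.4, 155.9, 160.9 and 143.5 in liver and at most 0.2 in iBAT. The ornithine carrier Slc25a15 (means 123.66 and 5.50), the dicarboxylate carrier Slc25a10 (145.70 and 8.04) and the orphan carrier Slc25a47 (720.28 and 2.10) were also higher in liver. Slc25a4, the ADP/ATP translocase of heart and muscle, was 294.8, 374.6, 426.0, 681.4 and 985.7 in iBAT, again in the order of the muscle sums, and 4.5 to 10.8 in liver. The general translocase Slc25a5 was not called (359.46 in iBAT and 467.56 in liver).

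The division of labour between related genes was measured within each library, where it does not depend on the scale. For 31 pairs of a liver-type and another gene of the same step, the log2 ratio of the first to the second was taken in each library. The first gene was relatively higher in liver in 5 of 5 mice for 30 pairs. The pairs were chosen for such a division of labour with earlier results of these data known, so this count is a description and carries no test. In 21 pairs the order switched completely, the first gene being above the second in every liver library and below it in every iBAT library. These include the pairs of Atp2a1 and of Slc25a13, whose iBAT ratios followed the order of the muscle sums. From replicate 1 to 5 they fell from -0.784 to -5.738 and from -1.948 to -5.242, and the part of muscle RNA was not tested. The ranges of the tissues did not overlap for 29 pairs, the others being Scd1 to Scd2 and Pfkl to Pfkm.

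**Figure D4:**
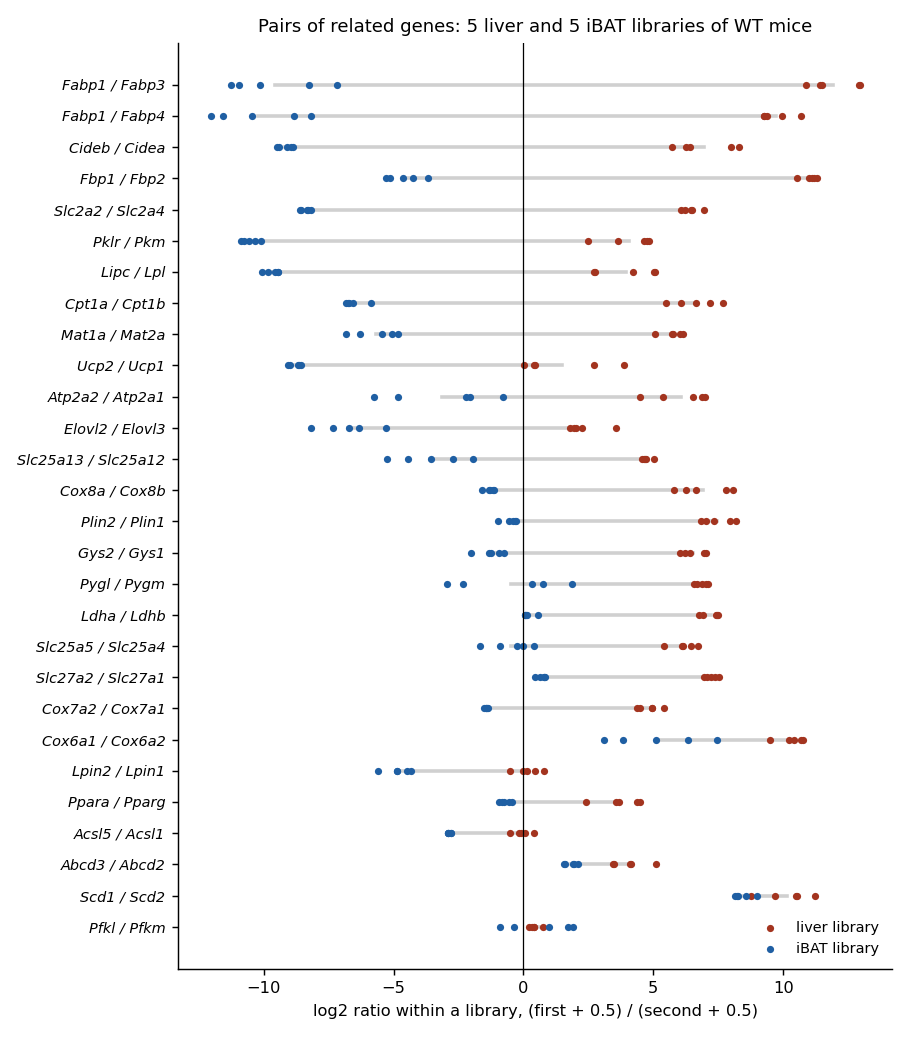
Log2 ratio of the first to the second gene of each of 28 pairs (value + 0.5) in 5 liver libraries (red) and 5 iBAT libraries (blue) of WT mice, with a grey line joining the means. The colours do not overlap for 26 of the pairs shown; for Pfkl to Pfkm the iBAT points lie on both sides of the liver points.

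Glucose handling gave several of the complete switches. Slc2a2, the liver transporter GLUT2, was 111.5 to 134.8 in liver and at most 0.1 in iBAT, and Slc2a4, the insulin-responsive GLUT4, was 162.1 to 192.2 in iBAT and 0.5 to 1.5 in liver. Hexokinase 2, Hk2, was 80.4 to 106.4 in iBAT and 0.5 to 2.5 in liver. At the last step of glycolysis the log2 ratio of the pyruvate kinases Pklr to Pkm was 4.07 ± 1.01 (SD, n = 5) in liver and -10.53 ± 0.30 (SD, n = 5) in iBAT. Ldhb, the lactate dehydrogenase subunit of oxidative tissues, was 589.2 to 668.4 in iBAT and 2.9 to 4.6 in liver, so that Ldha made 53.2% of the pair in iBAT and 99.4% in liver. Of 25 glycolytic genes, 7 were higher in liver and 17 in iBAT. The 17 include genes whose iBAT values followed the order of the muscle sums, such as Eno3 (47.4 to 1091.5) and Pfkm (70.5 to 388.4).

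The exception among the pairs was phosphofructokinase. Pfkl, its liver form, was not a liver gene here, with means of 18.04 in liver and 247.50 in iBAT and a log2 ratio of -3.73 in the same direction as Pfkm (means 13.26 and 191.48). The log2 ratio of Pfkl to Pfkm was 0.22 to 0.74 in liver and 1.92, 1.71, 0.98, -0.36 and -0.91 in iBAT, lowest where the muscle sums were highest, and its mean difference between tissues was -0.24 ± 1.39 (SD, n = 5). For glycogen the pair also followed the order of the muscle sums. Pygm, muscle glycogen phosphorylase, was 39.8, 112.1, 128.3, 548.3 and 926.8 in iBAT, and the liver form Pygl was not called (means 145.08 in iBAT and 139.60 in liver).

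Gluconeogenesis was set apart by its last enzymes. G6pc, glucose-6-phosphatase, was 275.3 to 640.5 in liver and at most 0.5 in iBAT, and Fbp1 was 1106.6 to 1381.6 and 0.2 to 1.4. Pck1, which makes phosphoenolpyruvate for glucose in liver and for glycerol in fat, was 3089.3, 2939.1, 2780.7, 4190.1 and 3722.8 in liver and 2654.9, 2698.5, 2818.1, 2538.5 and 1796.9 in iBAT. The tissues overlapped for Pck1, and it was not called. Only Scd1 had a higher minimum of the 2 tissue means among the 198 genes found in the 500 most abundant of both tissues, mt- genes aside.

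Lipid storage genes were mostly higher in iBAT. Of 21 lipid droplet and lipolysis genes, 14 were higher in iBAT and 3 in liver. Plin1, the perilipin of adipocytes, was 419.8 to 624.7 in iBAT and 0.8 to 3.0 in liver, while Plin2, the perilipin of all cells, was 431.8, 517.1, 356.7, 246.5 and 335.4 in iBAT and 380.4, 558.6, 286.7, 233.1 and 569.3 in liver and was not called. The lipases Pnpla2 (1537.7 to 2034.8 in iBAT, 95.5 to 147.1 in liver) and Lipe (361.4 to 540.0 and 8.9 to 17.5) were higher in iBAT, and the hepatic esterase-like lipase Aadac was higher in liver (means 443.38 and 0.20). The CIDE proteins, which control droplet size, switched from Cideb in liver (means 390.10 and 4.20) to Cidea in iBAT. Cidec, the third member, was 806.4 to 882.1 in iBAT and 18.6, 61.2, 9.5, 10.2 and 72.7 in liver, where replicates 2 and 5 were the highest, as they were for Plin2.

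Of 18 genes of fatty acid synthesis and desaturation, 5 were higher in liver and 8 in iBAT, against 20.6% and 35.8% of all tested genes. Fasn, fatty acid synthase, was 2606.3, 2857.6, 2207.3, 1739.0 and 1627.9 in iBAT and 221.5, 152.4, 86.2, 138.0 and 129.1 in liver, a log2 ratio of -3.95 ± 0.17 (SE, n = 5 mice, limma adjusted p = 1.24e-06). Acaca, which makes its malonyl-CoA substrate, was also higher in iBAT (means 150.76 and 21.90). Scd1, the delta-9 desaturase, was abundant in both, at 5487.1 to 14033.3 in iBAT and 4335.8 to 8298.8 in liver, with overlapping ranges but a higher value in the iBAT of each mouse. Elovl6, which elongates the product of Fasn, was 124.2 to 173.6 in iBAT and 29.5 to 47.7 in liver. Genes that make polyunsaturated fatty acids were higher in liver. Fads2 was 1090.4 to 1797.4 in liver and 2.5 to 4.1 in iBAT, Fads1 had means of 656.94 and 3.74, and Elovl2 means of 603.04 and 0.20. In triglyceride synthesis 11 of 15 genes were higher in iBAT, led by Gpd1 (means 3974.16 and 271.72), while Mttp, which loads triglyceride onto lipoproteins, was higher in liver (125.26 and 1.4).

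Cholesterol synthesis was mostly higher in liver, with 16 of 21 genes called and none in iBAT, and a median log2 ratio of 3.05 as deposited and 2.09 without mt- genes. The genes summed to 2397.7 ± 434.0 (SD, n = 5) in liver and 466.5 ± 48.7 (SD, n = 5) in iBAT. The genes not called were Insig1, Hmgcs1, Pmvk, Mvk and Fdft1, with deposited log2 ratios of 0.32 to 1.07.

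The pathway lists with the highest medians were those of specialised liver functions. All 32 apolipoproteins and plasma proteins were higher in liver (median log2 ratio 10.49), and they summed to 235705.1 ± 18015.1 (SD, n = 5) in liver against 2120.0 ± 127.4 (SD, n = 5) in iBAT. Of that iBAT sum Apoe, which macrophages and adipocytes also make, had a mean of 567.82, against 27893.90 in liver. Of 24 genes of the urea cycle and amino acid breakdown, 21 were higher in liver, among them Cps1, the entry enzyme of the urea cycle, at 1236.9 to 1651.9 against at most 0.8 in iBAT. Glul, glutamine synthetase, was among the 2 that were higher in iBAT, at 787.4 to 1042.2 against 388.4 to 723.5 in liver, and the other was Mat2a, the methionine adenosyltransferase of tissues other than liver (means 52.22 and 36.96). All 16 bile acid genes were higher in liver, and Cyp7a1, the first enzyme of bile acid synthesis, was 60.8 to 115.0 in liver and listed at 0 in every iBAT library.

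Of 22 cytochrome P450 and conjugation genes, 20 were higher in liver and 2 in iBAT. The exceptions were Cyp2b10, an inducible P450 with means of 48.90 in iBAT and 1.60 in liver, and Fmo1 (77.60 and 49.98). Cyp2e1, an abundant hepatic P450, was 6169.4, 4186.8, 5843.4, 7867.9 and 2266.3 in liver and 24, 49.1, 60.9, 36.2 and 117.6 in iBAT, which at 1.09% of the liver mean was well above the 0.0244% to 0.0406% of the other 9 hepatocyte markers. Among secreted proteins, the adipocyte hormone Adipoq was 706.4 to 843.9 in iBAT and 0.8 to 6.5 in liver. The hepatokine genes Fgf21 (5.4 to 36.1 in liver, 0.1 to 0.7 in iBAT), Igf1 (means 102.40 and 1.96) and Rbp4 (5169.34 and 107.14) were higher in liver.

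Transcription factors that set cell identity also differed. Of 15 hepatocyte factors 13 were higher in liver, with Hnf4a at 293.8 to 414.7 in liver and at most 0.2 in iBAT, and the 2 others, Cebpa and Cebpb, were not called. Of 17 brown adipocyte factors, 10 were higher in iBAT. Ebf2, which marks committed brown fat precursors, was 9.9 to 16.4 in iBAT and listed at 0 in every liver library, and Prdm16 was 4.1 to 5.8 and 0.1 to 0.2. Tbx15, also on this list, was 1.7, 4.1, 8.4, 17.6 and 34.8 in iBAT, in the order of the muscle sums. Gata6 was higher in liver, with means of 4.30 and 0.26, and the other 6 factors were not called.

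Among the nuclear receptors, which include the sensors of fatty acids, 10 were higher in liver and 12 in iBAT of 29. The shares of all tested genes were 20.6% and 35.8%. Ppara, the receptor that drives fatty acid oxidation genes, was 128.8, 112.8, 101.6, 95.2 and 63.9 in liver and 92.8, 73.6, 64, 71.0 and 60.9 in iBAT and was not called, since its log2 ratio was 0.45 as deposited and -0.58 without mt- genes. Its relative Pparg, the adipocyte receptor, was 102.1 to 137.4 in iBAT and 4.1 to 11.7 in liver. The estrogen-related receptors Esrra (means 98.32 and 33.06) and Esrrg (6.66 and 0.44) and the coactivators Ppargc1a (14.68 and 4.72) and Ppargc1b (40.82 and 7.34) were higher in iBAT. Known PPARA targets were divided, 12 of 28 higher in liver and 14 in iBAT, and no single direction describes them.

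Hormone receptors were divided too. Gcgr, the glucagon receptor, was 249.9 to 275.1 in liver and at most 0.3 in iBAT, and Adra1b, the hepatic alpha-1 adrenergic receptor, had means of 43.36 and 0.14. Adrb3, the adipocyte adrenergic receptor, was 151.8 to 230.0 in iBAT and 3.6 to 10.6 in liver. Downstream of it, Prkar2b, a regulatory subunit of protein kinase A, was 499.8 to 642.9 in iBAT and 0.8 to 2.6 in liver.

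Genes used by every cell showed how far the scale alone can move a list. Of 50 cytosolic ribosomal protein genes, 49 were not called and the median log2 ratio was 0.51 as deposited and -0.53 without mt- genes. The 31 proteasome genes had medians of 0.25 and -0.78, and the 3 that were called, all toward iBAT, had deposited log2 ratios of -0.31 to -0.20 (Psma1, Psmb3 and Psmd8), of which Psmb3 and Psmd8 lost their call under some alternatives. Mitochondrial ribosomal proteins stood lower than these, with 45 of 61 higher in iBAT and medians of -0.57 and -1.60.

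**Figure D5:**
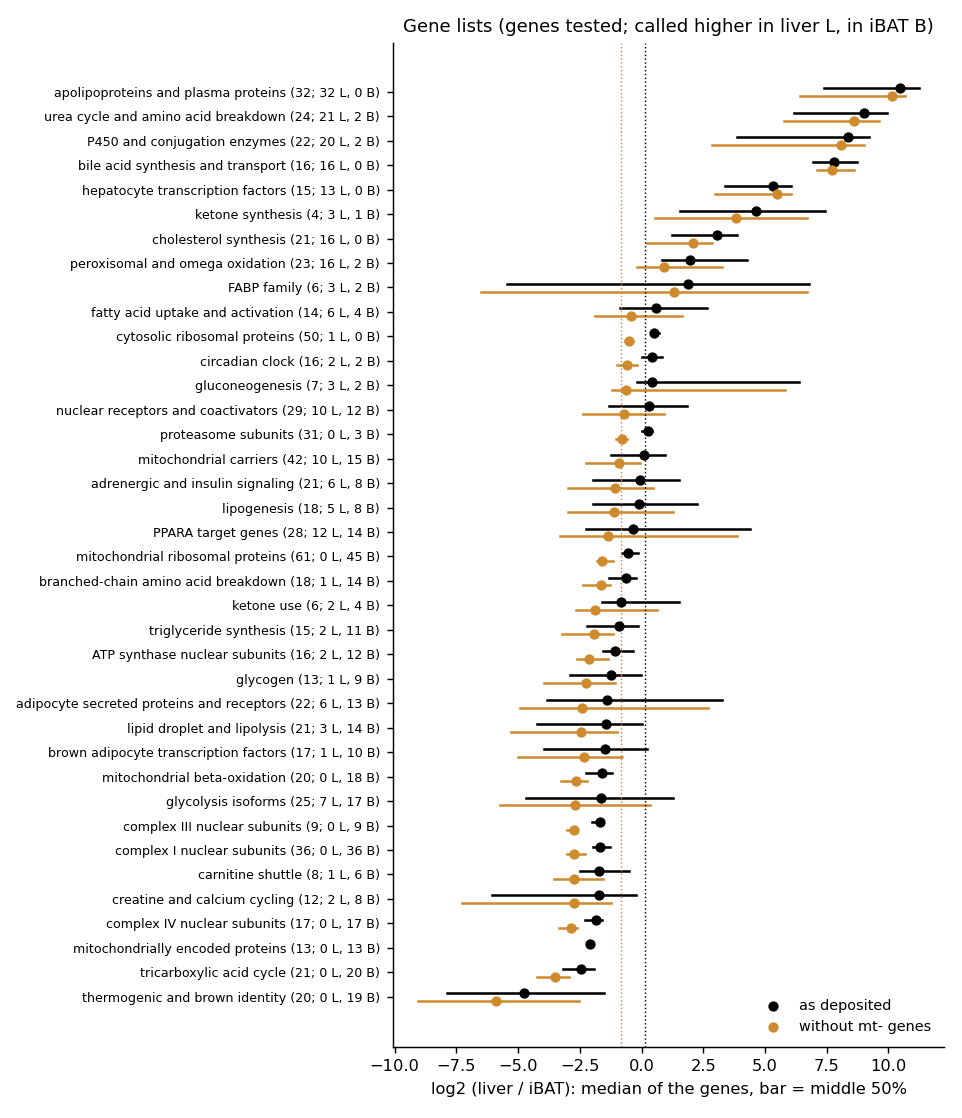
Median (point) and middle 50% (bar) of the log2 ratio of liver over iBAT for 38 gene lists, as deposited (black) and without mt- genes (orange), with dotted lines at the medians of all tested genes; in brackets are the genes tested and those called higher in liver (L) and in iBAT (B). Plasma proteins lie highest (10.49) and thermogenic genes lowest (-4.76), and the 2 scales differ by about 1 for most lists.

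The same measure was taken in the liver and iBAT of 5 LFABP-/- mice of the same diet, which the WT comparison does not use. Fabp1, the deleted gene, was 51.8, 13.7, 0.3, 0.6 and 0.2 in their livers, under 1% of the lowest WT liver. In their iBAT it was 0.4, 2.0, 21.2, 15.0 and 13.1, of which the values of replicates 3 to 5 were above every WT iBAT library and above the livers of the same replicates. Of the genes at 4-fold or more higher in liver of WT mice, 1210 were tested there and 1203 were called the same way, and 1 the opposite way. That gene, picked out after its values were seen, was Fgf21, a fasting hormone, with means of 19.34 in liver and 0.38 in iBAT of WT mice and 11.08 and 26.1 in LFABP-/- mice. Of those higher in iBAT, 1062 of 1068 were called the same way and none the opposite way. Without the 4-fold limit, 2412 of 2723 genes higher in liver and 3991 of 4735 higher in iBAT were called the same way. Leaving out the pairs with Fabp1, the first gene was relatively higher in liver in 5 of 5 LFABP-/- mice for 28 of 29 pairs.

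The log2 ratio of liver over iBAT was tested for a genotype effect, and it differed for 2862 of 13049 genes (21.9%). In LFABP-/- mice it moved toward liver for 1237 and toward iBAT for 1625, whichever tissue was higher in WT mice. Among the genes at 4-fold or more in liver, 482 were of the second kind and 22 of the first. Among those at 4-fold or more in iBAT, 71 were of the second kind and 185 of the first. Both sets were picked by the WT ratio, which also enters this term. A smaller difference in LFABP-/- mice is thus favoured in advance in both, and no conclusion is drawn from these counts. Hepatocyte transcripts also differed between the genotypes in iBAT. The summed hepatocyte markers in LFABP-/- iBAT were 1138.1, 1645.0, 1495.2, 288.3 and 183.1, against 53.1 to 209.5 in WT iBAT, and 469 of the 482 genes had a higher mean in LFABP-/- than in WT iBAT. Their part in these calls was not tested. Alb itself was 637.9, 914.5, 863.9, 152.2 and 95.2 in LFABP-/- iBAT.

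Genes of this term were named from those with the smallest p and a mean of at least 20 in a group of libraries, which leaves out lower genes with p as small. Npr3, the clearance receptor of natriuretic peptides, was 13.9, 8.5, 11.4, 12.0 and 6.3 in WT iBAT and 83.5, 83.3, 84.7, 105.8 and 77.7 in LFABP-/- iBAT, and at most 1.0 in any liver. Its tissue difference moved by -2.94 ± 0.24 on the log2 scale (SE, n = 5 mice per genotype, limma adjusted p = 0.000157). Usp10, a deubiquitinase, was 6.9 to 8.1 in WT iBAT and 15.4 to 20.2 in LFABP-/- iBAT, with liver values of 19.1 to 25.0 and 19.6 to 20.2. Osgin1 changed in both tissues, with liver means of 64.68 in WT and 21.78 in LFABP-/- mice and iBAT means of 1.32 and 3.84.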

How the data were processed

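Libraries were made from poly(A)-selected RNA and sequenced as single 100-base reads, and the authors mapped them in CLC Genomics Workbench 20.0.4 to GRCm38 with Ensembl 92 genes. The deposited columns are headed RPKM but sum to nearly the same total in every liver and iBAT library. They were therefore treated as values on the TPM scale, as deposited by the authors. Read counts and depth are not given in these values, so no counting error can be stated and the precision is that of 5 mice. Samples were grouped and matched by their labels.

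Values were analysed as log2(value + 0.5), which understates the differences of low genes, with limma 3.58.1 in R 4.3.3 (trended variance, two-sided, Benjamini-Hochberg adjustment over all genes tested) and the mouse as a fixed block. The tissue by genotype term was fitted over 20 libraries. Calls needed an adjusted p under 0.1 on both scales, or for mt- genes on the deposited scale alone. The pairing comes from tissues of the same animal, and the deviations of the 5 matched pairs correlated at -0.03 to 0.23. Unmatched pairs correlated at -0.1832 to 0.1251, a range that holds the matched values of replicates 2, 3 and 5. For these mice the pairing rests on the labels alone. Among 40 pairs of libraries of a group at most 4.92% of values were identical, so none was a copy. The scripts were tested on simulated data.

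Named genes were Fabp1, Ucp1, the paired genes, the 10 largest differences in each direction, up to 4 called genes per list and direction with any exception, the 10 most abundant genes per tissue and the 10 smallest p of the tissue by genotype term among genes with a name and a mean of at least 20 in a group. Other list members and genes that vary little between iBAT replicates 5 and 1 were named after their values were seen. The members and lists were chosen with earlier results of these data known. Alternatives were other scalings, pseudocounts, filters, thresholds and designs, each mouse left out, and, chosen after seeing the data, the removal of genes over 4 times higher in iBAT replicate 5 than in replicate 1. Promoters are from RefSeq on GRCm38.p6. Some genes that the rule names are not reported here. The authors' inguinal fat libraries were not used.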

Additional observations from a re-analysis of the deposited data

Results flagged for a closer look

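Of 98 sets of 5 libraries examined for a value far from the other 4, 9 had one, and chance gives about 1 in 20. In the liver of replicate 5 the summed markers of 4 cell types stood above the other livers: Kupffer cells 549.0 (next highest 225.5), macrophages 374.5 (140.7), lymphocytes 12.0 (4.5) and stromal progenitors 198.4 (99.8). The log2 ratio of Elovl2 to Elovl3 in that liver was 3.546, with 2.248 as the next highest. Fabp1 was lowest in the liver of replicate 3, at 9165.5, with 11860.2 as the next lowest. In the iBAT of replicate 5 the summed hepatocyte markers were 209.5 (next highest 85.2), and the log2 ratio of Ldha to Ldhb was 0.575 (0.147). The summed stromal progenitor markers in the iBAT of replicate 3 were 268.4 (134.1).

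The difference between liver and iBAT itself differed between WT and LFABP-/- mice, by the limma tissue by genotype term on both scales, for 9 genes among those with the smallest p and a mean of at least 20 in a group. Its log2 value in LFABP-/- minus WT mice was -3.452 for Wwc1, -2.816 for Osgin1, -1.296 for Usp10, -2.559 for Acot12, -2.938 for Npr3, -1.768 for C77080, -2.454 for Rhod, -3.273 for Cldn1 and -1.389 for Akirin1. Wwc1 had means of 36.42 in liver and 0.1 in iBAT of WT mice and 32.36 and 5.34 in LFABP-/- mice, and Akirin1 17.62 and 21.36 in WT and 16.98 and 55.28 in LFABP-/- mice.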

How the results depend on the processing

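The scale decided the split of the calls. On the deposited values alone 6142 genes were higher in liver and 4735 in iBAT, and without mt- genes alone 2723 and 9138, since removing mt- genes lowers the median log2 ratio by about 1. Liver calls numbered 5722 with median-ratio scaling and 4607 with quantile normalization. Without mt- genes and the 10 most abundant genes of each tissue, 3223 genes were higher in liver and 8170 in iBAT. With a filter at a mean of 20 the counts were 1318 and 1485, and with a test against a 2-fold difference (limma treat) 1630 and 1914. Genotype-dependent genes numbered 4389 with quantile normalization and 1191 with the filter at 20. The median of cytosolic ribosomal proteins turned from 0.508 to -0.526 without mt- genes, -0.088 with quantile normalization and -0.246 without the most abundant genes as well, and that of proteasome subunits from 0.25 to -0.78, -0.322 and -0.501. Without the replicate block the counts were 2720, 4729 and 3003, and 1 of 298 named genes lost its call while none changed direction. Leaving out each mouse gave 2593 to 2722 liver calls, 4391 to 4980 iBAT calls and 2232 to 3031 genotype-dependent genes. Of 298 named genes under the 14 alternatives run gene by gene (scalings, pseudocounts, no block, no trend and each mouse left out), some of which lack a gene, 33 of 4144 values lost their call, 24 gained one and none reversed. Without the genes over 4 times higher in iBAT replicate 5 than in replicate 1, an alternative chosen after seeing the data, 2703 and 4453 genes were called. Depth is unknown, so low values carry an unstated counting error, and the part of muscle RNA in iBAT was not tested.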
